A study of Mus musculus with 24 samples.

Results

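The nuclear genes for the subunits of respiratory complex I were examined in mouse E14 embryonic stem cells in which the tRNA fragment tRF-GG had been inhibited. Members were chosen by symbol: every listed gene whose symbol is Nduf followed by a, b, c, s, v or ab and a number, without the Ndufaf assembly factors and the pseudogenes marked -ps. This gave 38 of the 23917 genes listed in both deposited tables. Of these, 36 encode subunits of complex I. The other 2, Ndufa4 and Ndufa4l2, carry the name for historical reasons: Ndufa4 is now placed in complex IV, and Ndufa4l2 is its paralog. Ndufb1 and the subunits encoded by the mitochondrial genome were not analysed here.

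E14 is an embryonic stem cell line. Cells had been transfected with antisense oligonucleotides that contain locked nucleic acids and target tRF-GG (the inhibitor), with an esiRNA pool against GFP (the GFP control), or mock-transfected. Each of these 3 transfections was measured as RNA isolated with Trizol and as ribosome footprints, the fragments of 26 to 32 nucleotides recovered from 80S ribosomes after RNase digestion. There were 6 groups of 4 libraries, which makes 24 libraries. All groups share the cell line, and the labels give no genotype, no agent for mock, no dose and no time after transfection. The labels do not say whether the 4 libraries of a group came from separate cultures, so p-values measure only the spread between these libraries, which may be technical. In bulk samples like these, fewer cells of a type and less RNA per cell cannot be told apart.

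Complex I (NADH:ubiquinone oxidoreductase) is the entry point of electrons from NADH into the respiratory chain of mitochondria. Its matrix arm holds an N module, which oxidises NADH, and a Q module, which passes the electrons over iron-sulphur clusters to ubiquinone. Its membrane arm pumps protons, and accessory subunits surround this catalytic core and are mostly needed for assembly and stability. The nuclear subunits are made on cytosolic ribosomes and imported, and NRF1, YY1, ETS family factors and oestrogen-related receptors are known regulators of such genes. Embryonic stem cells are known to draw much of their energy from glycolysis while keeping a working respiratory chain.

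The deposited values were FPKM, a measure of reads in which library total and gene length are already divided out. They were scaled between the libraries of one table by a median of ratios, and all levels below are scaled FPKM. The pluripotency markers checked the labelled cell type: 8 of 8 had a mean of at least 1, their sum lay between 2440 and 3660 over the 12 RNA libraries, and Dppa5a was highest with a mean of 1220. Of the fibroblast markers, Dcn and Lum were at 0 in every library of both tables, and 1 of 8 reached a mean of 1, namely Thy1. Of the primitive endoderm markers 4 of 6 reached it in both tables, and of the trophoblast markers 2 of 6 in RNA and 0 of 6 in footprints. In RNA, fibroblast markers summed to 4.75 to 13.4 with the inhibitor, 2.99 to 6.8 in GFP control and 3.0 to 6.06 in mock. The 6 primitive endoderm markers summed to 4.15 to 24.8, 4.02 to 13.2 and 3.79 to 15.3 in the same groups, and the 6 trophoblast markers to 2.56 to 9.91, 2.1 to 7.61 and 1.46 to 5.06. The highest sum of each of these 3 lists was in an inhibitor library, and the part of such cells in the results was not tested. The ribosomal RNA precursor Rn45s took 1.68% to 62.7% of the FPKM of an RNA library and 18.5% to 44.2% of a footprint library. The highest RNA values were 62.7% in inhibitor library 1, 39.1% in mock library 1 and 18.1% in GFP control library 1. In the RNA libraries numbered 2 to 4 of all groups it took 1.68% to 5.25%. The scaling divided the FPKM of these libraries numbered 1 by 0.17, 0.45 and 0.88, and that of inhibitor RNA libraries 2 to 4 by 1.33 to 1.44. In inhibitor RNA library 1, 6697 genes reached 1 FPKM as deposited, against 11647 to 11884 in inhibitor RNA libraries 2 to 4. Relative depth was estimated from low values, with the deepest library of a table set to 100%. It ran from 7.38% (mock library 3) to 100% in RNA and from 20.6% (inhibitor library 3) to 100% in footprints. The number of reads behind a value is unknown, and intervals for counting error are therefore left out.

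Promoter sequences were searched for the letters that these known regulators bind. RefSeq promoter windows of GRCm38.p6, from 250 bases before to 50 bases after an annotated start of the gene, were found for 33 of the 38 members. Where a gene had several windows, a match in any of them counted. The core of the NRF1 motif was searched as GCGCANGCG, the core shared by YY1 and TISU (an element at the start codon of genes with a very short leader) as AANATGGCG, the ETS motif as CCGGAAGT and that of oestrogen-related receptors as TCAAGGTCA, each on both strands. The NRF1 letters were found in 8 members, 24.2% of those with a window, where 7.03% of the 27025 genes with a window held them. The YY1 and TISU letters were found in 7 members, 21.2%, where 2.76% of genes held them. The ETS letters were found in 1 member, Ndufs3 (3.03% of members, 4.31% of genes), and those of oestrogen-related receptors in 0 (0.0% of members, 0.466% of genes). These shares were not tested, and a match is a description of letters, not of binding. The 27025 genes were not limited to those expressed in these cells. In 5 of the 7 members with the YY1 and TISU letters the match lies 21 to 50 bases after an annotated start of the gene. Those stretches are shown 5′ to 3′ on the strand of the gene, with the matched letters in capitals. They lie at chr6:126849095-126849124 (minus strand), chr3:51408906-51408935 (minus strand), chr13:114388045-114388074 (minus strand), chr13:73328433-73328462 (minus strand) and chr10:80249469-80249498 (plus strand).
Ndufa9: ttgtgggagAAGATGGCGgccgccgtccgc
Ndufc1: acAAGATGGCGccgtccgtagtgctgcgct
Ndufs4: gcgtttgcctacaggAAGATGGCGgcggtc
Ndufs6: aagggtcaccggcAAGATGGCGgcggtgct
Ndufs7: ggccAAGATGGCGgcgctggcgggtgagtg
All 5 share the same 9 letters on the strand of the gene, with an ATG inside the match. The other 2 members with these letters, Ndufa7 and Ndufb11, hold them before the start of the gene. For Ndufs7 the stretch shown is counted from an annotated start downstream of the gene start at chr10:80249105.

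Ndufb4 and Ndufs6, the members with the lowest and the highest estimated RNA difference between inhibitor and GFP control, and Ndufs5, with the next highest, each hold the NRF1 letters before the start of the gene. These are shown 5′ to 3′ on the strand of the gene with the matches in capitals. Shown are the 200 bases before Ndufb4 (chr16:37654369-37654568, minus strand), the 60 bases before Ndufs6 (chr13:73328483-73328542, minus strand) and 60 bases further before the start of Ndufs5 (chr4:123718247-123718306, minus strand).
Ndufb4: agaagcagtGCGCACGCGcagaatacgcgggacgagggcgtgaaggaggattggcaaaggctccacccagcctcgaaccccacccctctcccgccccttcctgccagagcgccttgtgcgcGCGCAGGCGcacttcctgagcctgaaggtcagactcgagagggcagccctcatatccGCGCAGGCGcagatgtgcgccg
Ndufs6: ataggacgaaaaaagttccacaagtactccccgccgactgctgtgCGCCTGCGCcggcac
Ndufs5: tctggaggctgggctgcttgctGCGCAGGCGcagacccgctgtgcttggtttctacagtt
Ndufb4 holds 3 matches and the others 1 each in the stretches shown. The match before Ndufs6 is on the opposite strand. The remaining members with these letters were Ndufa5, Ndufa6, Ndufa8, Ndufa11 and Ndufb10, with RNA differences from GFP control between -0.25 (Ndufa11) and 0.17 (Ndufb10). Ndufa1, with the next lowest estimate after Ndufb4 (-0.56), was not among the members with these letters. A link between the letters and the RNA differences was not tested.

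All 38 members passed the filter on low values, a mean of at least 0.5 FPKM, in both tables. The 36 subunits of complex I spanned mean levels of 18.0 to 137 in RNA and 24 to 176 in footprints. Their standard deviation across genes was 0.57 (log2) in RNA and 0.66 in footprints. The level in footprints followed the level in RNA with a Pearson r of 0.746 and a Spearman rho of 0.697 over the 36 genes. This correlation is across genes, which share their libraries and are not independent replicates. The 7 core subunits had a median level of 41.9 in RNA and 39.1 in footprints. The 29 accessory subunits, Ndufab1 included, had medians of 49.9 and 66.9.

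**Figure D1:**
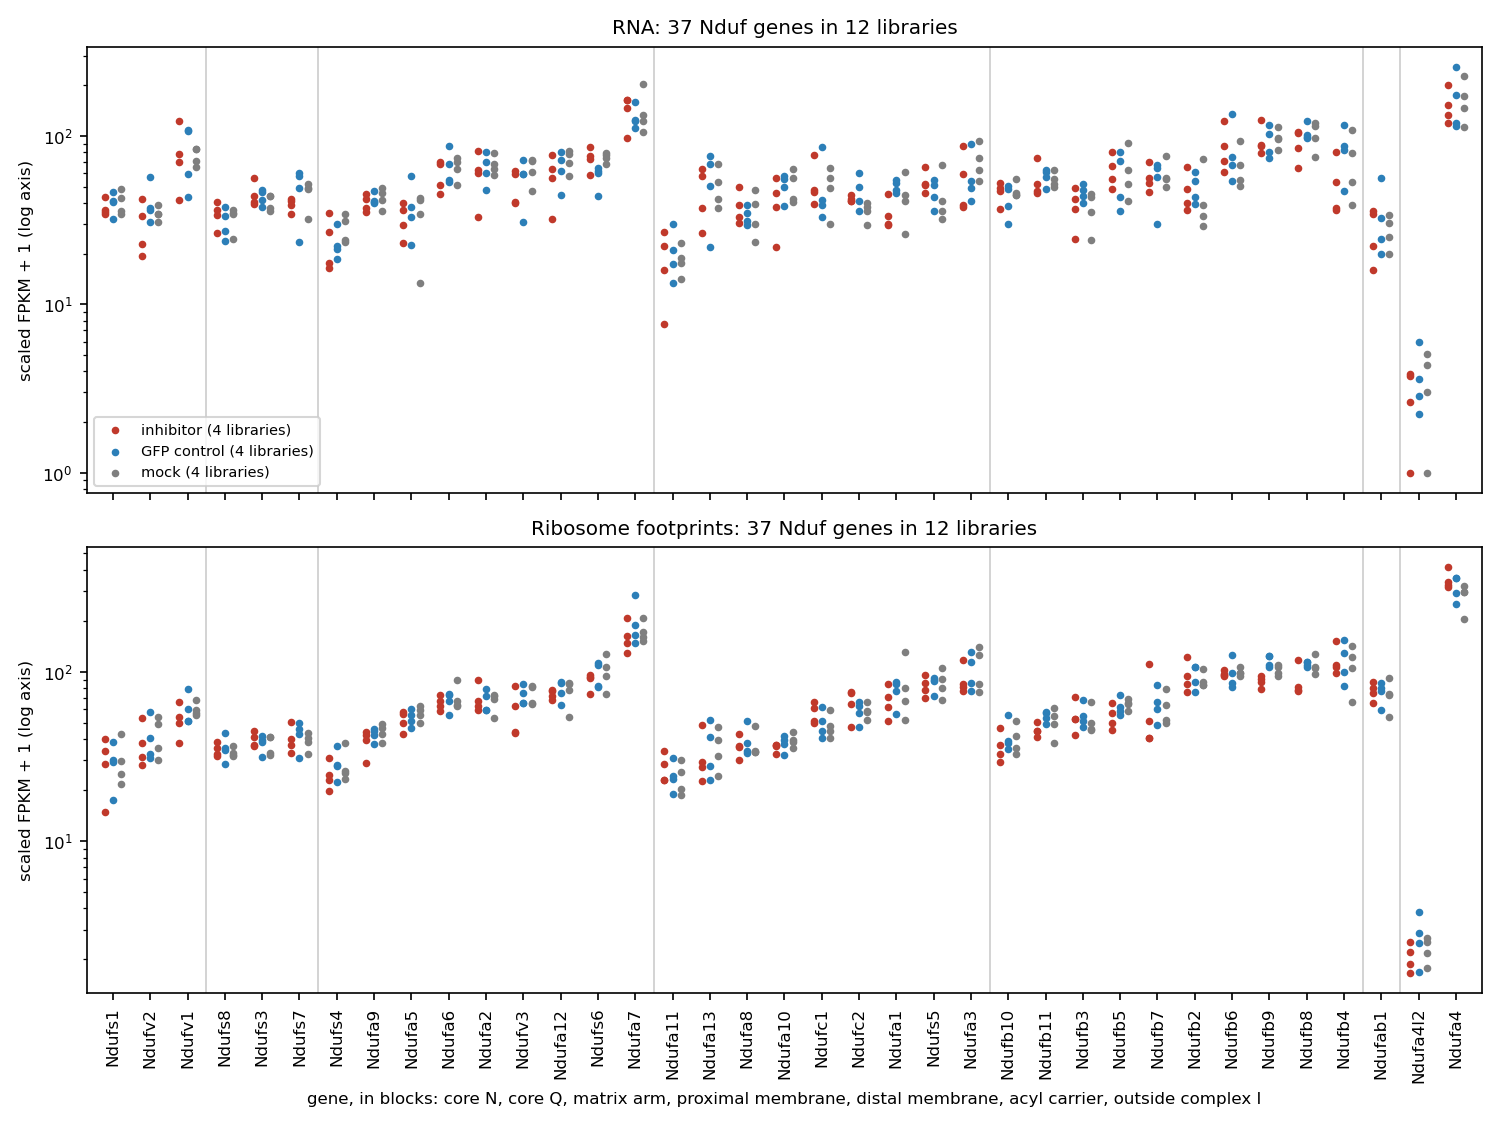
Scaled FPKM + 1 (log axis) of 37 of the 38 members in the 12 RNA libraries (top) and the 12 footprint libraries (bottom), 1 point a library, coloured by group and with genes in blocks by role. Ndufa4 is highest in both panels (means 160 and 314), Ndufa4l2 lowest (2.28 and 1.36), and the complex I subunits lie between them with means of 18.0 to 137 and 24 to 176.

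No member passed the test in any comparison. Differences were tested with limma on log2(scaled FPKM + 1) over all genes past the filter, with Benjamini-Hochberg adjustment, and changes are on that scale, which understates the change of low genes. In RNA, inhibitor against GFP control, 0 of 38 members passed an adjusted p of 0.05, where limma called 0.0159% of the 12560 genes tested. At an unadjusted p under 0.05 there was 1 member, Ndufa1, against 3.11% of all genes. In RNA, inhibitor against mock, 0 of 38 passed (background 0.0239%) and 0 had an unadjusted p under 0.05 (background 3.66%). In footprints, inhibitor against GFP control, 0 of 38 passed (background 0.00937% of 10669 genes), and 2 had an unadjusted p under 0.05, Ndufb8 and Ndufb9 (background 3.31%). In footprints, inhibitor against mock, 0 of 38 passed (background 0.0%) and 0 had an unadjusted p under 0.05 (background 3.59%).

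The 2 controls were set against each other in the same fits. In RNA, GFP control against mock, 0 of 38 members passed (background 0.0%), and 1 had an unadjusted p under 0.05, Ndufs6 (background 0.525%). In footprints 0 of 38 passed (background 0.00937%), and 0 had an unadjusted p under 0.05 (background 0.459%). Both inhibitor comparisons share the inhibitor libraries and each shares its control with this one.

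As a group, the members' estimates lay slightly below 0 in the inhibitor libraries. The median difference of the 38 members between inhibitor and GFP control was -0.09 (log2) in RNA and -0.07 in footprints, where the medians of all genes were -0.01 and 0.01. Between inhibitor and mock it was -0.06 in RNA and -0.12 in footprints, and between the controls -0.00 and 0.03. Estimates below 0 for inhibitor against GFP control were found for 24 members in RNA (52.4% of all genes were below 0) and for 29 members in footprints (47.1% of all genes). Against mock the numbers were 25 in RNA (51.6% of all genes) and 26 in footprints (49.3%). The median standard error of a single member was 0.25 in RNA and 0.18 in footprints. Without inhibitor library 1, the library in which Rn45s took 62.7%, the RNA median was 0.01 against GFP control and 0.00 against mock. In that library the members lay at a median of 0.23 below their own means (log2), the lowest of the 12 RNA libraries. The part of Rn45s in this was not tested.

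The intervals give the sizes that the data leave possible in the fit that leaves out the library number. With the number as a block, the SE in RNA was 0.13 in place of 0.30 for Ndufa3 and 0.27 in place of 0.28 for Ndufb2. In footprints the 95% interval of the difference stayed within 2-fold in either direction for 38 of 38 members, in both inhibitor comparisons. In RNA it did so for 34 of 38 members against GFP control, all but Ndufa1, Ndufa4l2, Ndufb4 and Ndufv2. Against mock it did so for 35, all but Ndufa3, Ndufa4l2 and Ndufb4. These sizes are on the log2(scaled FPKM + 1) scale, and for Ndufa4l2 the pseudocount of 1 narrows the interval, so that it sets no limit on the fold of that gene.

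**Figure D2:**
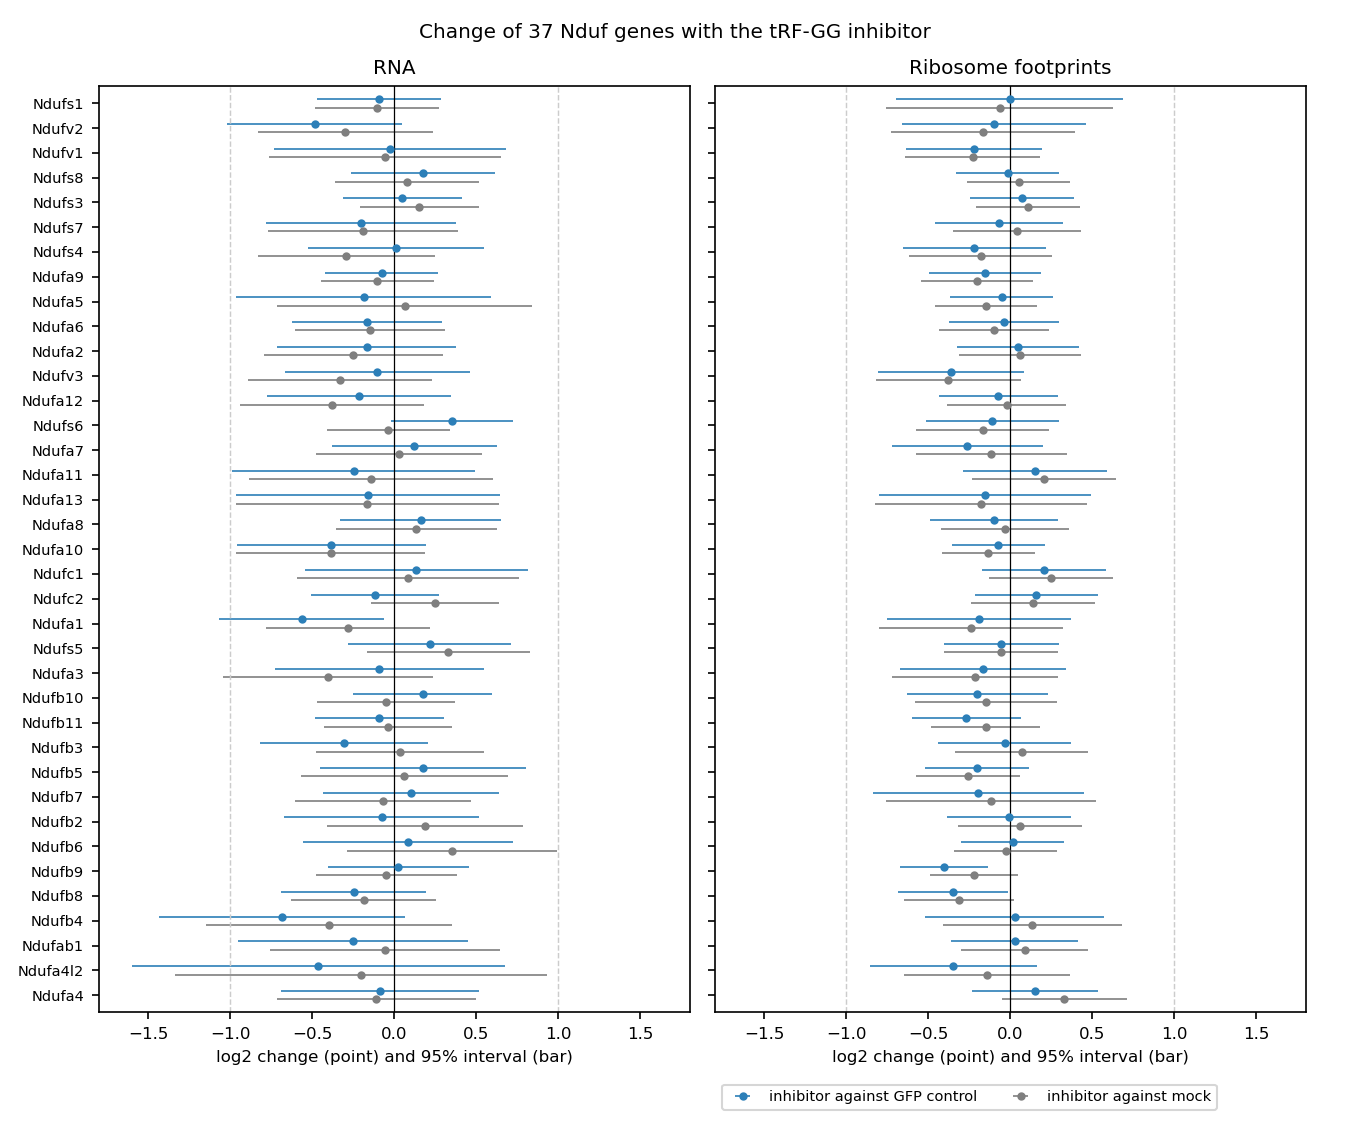
Difference of 37 of the 38 members between inhibitor and GFP control (blue) and between inhibitor and mock (grey) in RNA (left) and footprints (right), on the log2(scaled FPKM + 1) scale, with 95% intervals as bars and dashed lines at a 2-fold change. The footprint intervals all lie inside the dashed lines, and the lowest points are Ndufb4 in RNA (-0.68) and Ndufb9 in footprints (-0.40).

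The core subunits of the N module take electrons from NADH. In the lists below, the 4 values of a group are in the order of libraries 1 to 4, and all are scaled FPKM. A value after ± is the standard error (SE) for a difference, which is on the log2 scale, and the SD for a level. Ndufv1 binds NADH and the flavin cofactor, and its RNA stood at 40.6, 69.4, 76.7 and 122 with the inhibitor, 58.8, 42.5, 106 and 108 in the GFP control and 70.2, 64.3, 82.3 and 83.2 in mock. Its footprints stood at 53.4, 48.8, 36.8 and 65.1 with the inhibitor, 50.3, 50.1, 59.2 and 78.4 in the GFP control and 56.2, 58.1, 54.4 and 67.3 in mock. Inhibitor library 1 was lowest and inhibitor library 4 highest of all RNA libraries, so that the inhibitor group spanned both controls. Ndufv2 holds an iron-sulphur cluster next to the flavin, with RNA at 18.3, 41, 32.4 and 21.8 with the inhibitor, 36.3, 55.9, 35.1 and 29.9 in the GFP control and 33.3, 37.7, 29.8 and 33.5 in mock. Its footprints were 52.4, 30.4, 27.1 and 37.1 with the inhibitor, 56.7, 39.5, 30.1 and 31.5 in the GFP control and 47.9, 53.4, 29.2 and 34.4 in mock. The RNA of inhibitor libraries 1 and 4 lay below every control library, but inhibitor library 2 lay above most of them, and the difference from GFP control was -0.48 ± 0.25 (SE; limma, adjusted p = 1.0). Ndufs1, the largest subunit of the matrix arm, carries several iron-sulphur clusters, and its RNA was 33.6, 42.5, 35.3 and 34.5 with the inhibitor, 31, 45.7, 39.7 and 40.2 in the GFP control and 35, 33.4, 47.7 and 42.1 in mock. In footprints it stood at 39.2, 27.4, 13.9 and 33 with the inhibitor, 37.3, 29, 16.5 and 28.2 in the GFP control and 28.8, 41.9, 20.7 and 23.9 in mock. The 3 footprint libraries numbered 3, 1 of each group, were the lowest 3 of the 12, and the groups overlapped.

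The core subunits of the Q module hold the ubiquinone site. Ndufs3 is a structural subunit of the module, with RNA values of 39.3, 55.6, 38.6 and 43 with the inhibitor, 47, 40.4, 45.2 and 36.8 in the GFP control and 43.1, 42.9, 35 and 36.3 in mock. Footprint values of Ndufs3 were 40.2, 36, 43.4 and 35.3 with the inhibitor, 37.6, 40.5, 30.4 and 38.7 in the GFP control and 40.3, 40.2, 32 and 31.2 in mock. Inhibitor library 2 was the highest in RNA and inhibitor library 3 in footprints, with the groups overlapping. Ndufs7 carries the terminal iron-sulphur cluster, from which ubiquinone is reduced, and its RNA read 40.2, 33.3, 37.8 and 41.4 with the inhibitor, 59.6, 22.6, 57 and 48.4 in the GFP control and 48, 47.3, 51 and 31 in mock. Its footprints read 35.9, 39.3, 49.3 and 32.2 with the inhibitor, 30, 48.5, 44.7 and 41.8 in the GFP control and 39.9, 31.5, 42.4 and 37.6 in mock. GFP control libraries held both the lowest and the highest RNA value. Ndufs8, an iron-sulphur protein between the flavin and the quinone site, had RNA at 33, 25.5, 39.7 and 35.2 with the inhibitor, 26.1, 22.9, 36.7 and 32.7 in the GFP control and 33.6, 33.9, 35.2 and 23.4 in mock. Its footprint libraries were 31.8, 34.6, 37.5 and 30.7 with the inhibitor, 33.5, 34.3, 42.3 and 27.4 in the GFP control and 31.2, 35.6, 30.9 and 32 in mock. Each inhibitor library was above the GFP control library of the same number in RNA, by 0.17 ± 0.20 (SE, log2) on average, and in footprints only 2 of 4 were. Over the 7 core subunits, differences between inhibitor and GFP control ran from -0.48 (Ndufv2) to 0.17 (Ndufs8) in RNA and from -0.22 (Ndufv1) to 0.07 (Ndufs3) in footprints. None of the 7 had an unadjusted p under 0.05 in either table for this comparison, but with the library number as a block Ndufv2 did in RNA (limma, unadjusted p = 0.0202, adjusted p = 0.568).

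Among the accessory subunits of the matrix arm, Ndufs6 (chr13:73319876-73328482, GRCm38.p6) binds zinc and is needed for a late step of assembly. Its RNA values were 72.4, 57.9, 75.4 and 84.6 with the inhibitor, 59.3, 43.2, 60.8 and 63.5 in the GFP control and 67.6, 76.1, 78.2 and 73.4 in mock. Each inhibitor library was higher than the GFP control library of its number, the ranges overlapped, and the mock libraries overlapped with the inhibitor libraries. The group means were 72.6 ± 11 with the inhibitor, 56.7 ± 9.19 in GFP control and 73.8 ± 4.61 in mock (SD, n = 4 libraries each). The difference from GFP control was 0.35 ± 0.17 (SE, log2; limma, adjusted p = 1.0) and that from mock was -0.03 ± 0.17. Footprints of Ndufs6 stood at 91.7, 73.4, 94.4 and 90.6 with the inhibitor, 81, 79.9, 112 and 108 in the GFP control and 72.6, 93.2, 106 and 127 in mock. Here 3 of 4 inhibitor libraries were below the GFP control library of the same number, and mock library 4 was highest. Ndufv3, an accessory protein beside the flavin site, had RNA at 39, 39.7, 60.9 and 58.5 with the inhibitor, 58.5, 30, 58.6 and 71.3 in the GFP control and 46.2, 60.4, 70.5 and 71.4 in mock. Its footprints were 61.6, 43.1, 81.7 and 42.4 with the inhibitor, 64.2, 64, 83.5 and 74.2 in the GFP control and 64.6, 63.2, 79.8 and 81.6 in mock. Inhibitor libraries 2 and 4 were the lowest of all 12 in footprints, and each inhibitor library was below the GFP control library of its number. The footprint difference was -0.36 ± 0.21 from GFP control and -0.38 ± 0.21 from mock (SE; limma, adjusted p = 1.0 in both).

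Ndufa7 had the highest level of the 36 complex I subunits, with RNA at 95.7, 163, 163 and 146 with the inhibitor, 121, 111, 159 and 123 in the GFP control and 121, 204, 104 and 133 in mock. Its footprints were 146, 128, 206 and 161 with the inhibitor, 163, 146, 284 and 188 in the GFP control and 151, 170, 207 and 160 in mock. GFP control library 3 stood above the other footprint libraries, and each inhibitor library was below the GFP control library of its number. The difference in footprints was -0.26 ± 0.21 (SE, log2), and in RNA it was 0.12 ± 0.24. The other accessory subunits of the matrix arm were Ndufs4, Ndufa2, Ndufa5, Ndufa6, Ndufa9 and Ndufa12. The 9 accessory subunits of this arm had mean levels of 24.1 to 137 in RNA and 26.1 to 176 in footprints.

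The proximal membrane arm held Ndufa1, the only member with an unadjusted p under 0.05 in RNA against GFP control. Ndufa1 (chrX:37187588-37191238, GRCm38.p6) encodes a small X-linked subunit anchored in the membrane, and it is required for the complex to form. Its RNA stood at 32.3, 28.9, 44.1 and 28.7 with the inhibitor, 54, 46.7, 51.7 and 44.9 in the GFP control and 39.9, 25.2, 60.3 and 43.4 in mock. All 4 inhibitor libraries were below all 4 GFP control libraries, while mock library 2 was the lowest of all and mock library 3 the highest. The means were 33.5 ± 7.26 with the inhibitor, 49.3 ± 4.26 in GFP control and 42.2 ± 14.4 in mock (SD, n = 4 each). The difference from GFP control was -0.56 ± 0.23 (SE, log2; limma, unadjusted p = 0.0301, adjusted p = 1.0), and from mock it was -0.28 ± 0.23. Footprints of Ndufa1 were 50.1, 61, 83.4 and 69.5 with the inhibitor, 55.5, 75.7, 84.1 and 86.1 in the GFP control and 66, 51, 79.5 and 130 in mock. Each inhibitor library was again below the GFP control library of its number, but the ranges overlapped, and the difference of -0.19 ± 0.26 was smaller than its error. Mock library 4 stood far above the rest.

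Several further proximal subunits were taken up for their difference or their level. Ndufs5, which lies on the side of the intermembrane space, had RNA at 64.7, 44.7, 50.7 and 50.2 with the inhibitor, 34.8, 42.5, 50 and 53.9 in the GFP control and 66.1, 31.1, 34.8 and 40.1 in mock. Its footprints stood at 76.8, 69.3, 94.2 and 85.3 with the inhibitor, 87.2, 71.2, 88.4 and 90.8 in the GFP control and 67.3, 90.1, 79.7 and 104 in mock. Inhibitor library 1 and mock library 1 were the highest in RNA, and the difference from GFP control was 0.22 ± 0.23 (SE). Ndufc2 is a membrane subunit needed for assembly, with RNA at 40, 43.6, 41.4 and 40 with the inhibitor, 34.7, 59.2, 48.9 and 39.9 in the GFP control and 28.5, 38.9, 36.7 and 34.6 in mock. Its footprint values were 73.7, 46.5, 74.6 and 63.1 with the inhibitor, 65.3, 46.1, 61.5 and 55.8 in the GFP control and 50.8, 65.4, 56.7 and 57.9 in mock. The RNA of all 4 inhibitor libraries was above all 4 mock libraries (a difference of 0.25 ± 0.18, limma, unadjusted p = 0.191) and overlapped the GFP control. In footprints each inhibitor library was higher than the GFP control library of its number, by 0.16 ± 0.17 on average. Ndufc1, its small neighbour, read 75.8, 45.4, 38.7 and 46.6 with the inhibitor, 31.9, 85.5, 37.8 and 40.9 in the GFP control and 28.9, 63.6, 55.5 and 47.8 in mock in RNA. In footprints it read 50.3, 48.5, 60.2 and 64.9 with the inhibitor, 50.2, 43.7, 61.3 and 39.5 in the GFP control and 39.5, 43.9, 58.6 and 46.8 in mock. GFP control library 2 was far above the other 3 of its group in RNA. In footprints the inhibitor and mock libraries overlapped, with a difference of 0.25 ± 0.17.

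Ndufa11 and Ndufa13 were named for their level and their footprint-to-RNA ratio. Ndufa11 is a membrane protein at the contact with complex III and had the lowest level of the 36 subunits, with RNA at 6.66, 15.1, 25.9 and 21.1 with the inhibitor, 16.4, 12.3, 29 and 19.9 in the GFP control and 13.1, 22.1, 16.5 and 17.9 in mock. Its footprints were 21.9, 27.5, 33 and 21.9 with the inhibitor, 18, 23.4, 29.9 and 22.4 in the GFP control and 24.5, 19.3, 29 and 17.6 in mock. Inhibitor library 1 was the lowest in RNA and inhibitor library 3 the highest in footprints. The differences from GFP control, -0.25 ± 0.35 in RNA and 0.15 ± 0.20 in footprints (SE), were smaller than their errors. Ndufa13, also known as GRIM-19 for its described part in cell death, had RNA at 25.5, 36.3, 57.1 and 62.7 with the inhibitor, 49.7, 20.9, 66.8 and 74.8 in the GFP control and 36.6, 41.1, 67.4 and 52.2 in mock. Its footprints stood at 26.5, 21.5, 47.4 and 28.4 with the inhibitor, 26.6, 21.9, 50.8 and 40.1 in the GFP control and 23.2, 30.8, 46.3 and 38.6 in mock. In both tables the libraries numbered 3 were high, in all 3 groups, and those with the lowest values were numbered 1 or 2.

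Ndufb9 of the distal membrane arm had the smallest p of all members in footprints. Ndufb9 (chr15:58933801-58939516, GRCm38.p6) encodes a protein with a LYR motif that binds the acyl carrier protein. Footprints of Ndufb9 stood at 93.6, 89.9, 86.1 and 77.8 with the inhibitor, 123, 109, 105 and 123 in the GFP control and 93.5, 97.8, 108 and 105 in mock. The 4 inhibitor libraries were all below the 4 GFP control libraries, and they overlapped with mock. The means were 86.8 ± 6.79 with the inhibitor, 115 ± 9.28 in GFP control and 101 ± 6.72 in mock (SD, n = 4 each). The difference was -0.40 ± 0.12 from GFP control (SE, log2; limma, unadjusted p = 0.00644, adjusted p = 0.838) and -0.22 ± 0.12 from mock (unadjusted p = 0.101, adjusted p = 1.0). RNA of Ndufb9 was 78.5, 86.8, 87.3 and 124 with the inhibitor, 79.4, 73.1, 116 and 102 in the GFP control and 82, 96.6, 112 and 95.1 in mock. The RNA groups overlapped with means of 94.2, 92.6 and 96.4, and the difference from GFP control was 0.03 ± 0.20. Ndufb8, a subunit often used to follow complex I on blots, was the other member with an unadjusted p under 0.05 in footprints and is named because its value was seen. Its footprints were 116, 76.5, 77.1 and 80.7 with the inhibitor, 113, 106, 113 and 108 in the GFP control and 95.7, 126, 104 and 105 in mock. Inhibitor libraries 2, 3 and 4 were the lowest of the 12 and inhibitor library 1 was among the highest. The difference from GFP control was -0.35 ± 0.16 (SE; limma, unadjusted p = 0.0435, adjusted p = 1.0).

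Ndufb4 (chr16:37647602-37654368, GRCm38.p6), whose protein contacts complex III in supercomplexes, had the lowest RNA estimate of all members. Its RNA stood at 35.4, 52.6, 79.6 and 36.6 with the inhibitor, 81.1, 115, 86.6 and 46.4 in the GFP control and 37.8, 107, 78.5 and 52.2 in mock. Each inhibitor library was lower than the GFP control library of its number, but inhibitor libraries 2 and 3 lay within the range of both controls. The means were 51.1 ± 20.6 with the inhibitor, 82.1 ± 28.0 in GFP control and 69.0 ± 30.6 in mock (SD, n = 4 each), and the difference from GFP control was -0.68 ± 0.35 (SE, log2; limma, unadjusted p = 0.0716, adjusted p = 1.0). Footprints of Ndufb4 were 109, 105, 151 and 97.3 with the inhibitor, 128, 98.7, 153 and 81.2 in the GFP control and 104, 121, 141 and 65.5 in mock. They did not share the RNA difference: group means were 116, 115 and 108, the libraries numbered 4 were lowest in each group, and the difference was 0.03 ± 0.25. RefSeq names 2 further Ndufb4 genes, Ndufb4b and Ndufb4c, which were not analysed here, and how reads were divided between them was not checked. In all, 7 such copies of 6 members (Ndufa11, Ndufa12, Ndufab1, Ndufb4, Ndufs5 and Ndufs6) are named in RefSeq. They are not listed in the tables, so the values of these 6 are uncertain to that extent. Copies were sought only by member symbols ending in b, c or -ps. Copies under other names were not searched for any member.

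Ndufb2, a small subunit of the distal arm, had RNA at 35.4, 38.9, 64.3 and 47.7 with the inhibitor, 60.3, 53.2, 42.7 and 38.3 in the GFP control and 37.7, 71.7, 28.2 and 32.4 in mock. Its footprints stood at 83.5, 92.9, 122 and 74.7 with the inhibitor, 75.2, 105, 106 and 86.3 in the GFP control and 82.3, 83.1, 103 and 85.9 in mock. The groups overlapped in both tables, with differences from GFP control of -0.08 ± 0.28 in RNA and -0.01 ± 0.18 in footprints. The other distal subunits were Ndufb3, Ndufb5, Ndufb6, Ndufb7, Ndufb10 and Ndufb11. The 10 members of this arm had mean levels of 39.4 to 97.8 in RNA and 38.4 to 113 in footprints.

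Ndufab1 is the mitochondrial acyl carrier protein, which is also used in lipoic acid synthesis. Its RNA was 33.6, 34.9, 21.3 and 14.9 with the inhibitor, 31.6, 55, 23.6 and 18.8 in the GFP control and 19, 32.9, 29.3 and 24 in mock. Its footprints were 79.6, 74, 85.9 and 64.4 with the inhibitor, 78.8, 76.5, 85.3 and 58.7 in the GFP control and 71.5, 90.9, 73.3 and 53.3 in mock. GFP control library 2 was the highest in RNA, and the libraries numbered 4 were the lowest of each group in footprints. The difference from GFP control was -0.25 ± 0.33 in RNA and 0.03 ± 0.18 in footprints (SE).

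The members outside complex I marked the top and the bottom of the range. Ndufa4, a subunit of complex IV, had RNA at 132, 151, 199 and 118 with the inhibitor, 113, 255, 174 and 119 in the GFP control and 112, 146, 227 and 171 in mock. Its footprints were 316, 324, 412 and 340 with the inhibitor, 356, 292, 359 and 252 in the GFP control and 295, 294, 320 and 205 in mock. In footprints the inhibitor and mock libraries overlapped, with a difference of 0.33 ± 0.18 (SE; limma, unadjusted p = 0.085, adjusted p = 1.0), and its RNA difference from mock was -0.11 ± 0.28. Ndufa4l2 is known as a hypoxia-induced gene in other cells, and its RNA was 0, 1.64, 2.84 and 2.77 with the inhibitor, 1.23, 1.85, 2.61 and 4.97 in the GFP control and 3.34, 2.03, 0 and 4.07 in mock. It is listed at 0 in inhibitor library 1, where Rn45s took 62.7% of the FPKM, and in mock library 3. Mock library 3 had the lowest relative depth in RNA, 7.38%. Its footprints were 0.666, 0.886, 1.52 and 1.22 with the inhibitor, 0.688, 1.5, 1.85 and 2.83 in the GFP control and 0.773, 1.55, 1.66 and 1.17 in mock. At levels this low the pseudocount of 1 sets much of the log2 value, and the RNA difference of -0.46 ± 0.53 from GFP control had the widest error of all members.

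Footprints were high relative to RNA for the whole family. The ratio was taken as the mean log2(scaled FPKM + 1) of footprints minus that of RNA, and since the 2 tables were scaled separately it is a description with no test. Its median was 0.12 for the 38 members and -0.81 for the 10497 genes measured in both tables. All 38 of 38 members lay above the median of all genes, and 27 of 38 lay above 0, where 10.5% of all genes did. The median of the members stood at percentile 92.4 of all genes. Among the 528 genes whose RNA level lay between the quartiles of the members, the median was -0.66. The 38 genes listed for the other respiratory complexes and ATP synthase had a median of 0.17, near that of the complex I genes. The assembly factors of complex I, which help to build the complex and are not part of it, had a median of -0.47 over 16 genes. The regulators had -0.95 over 8 genes. Footprints come from coding sequence, and the labels do not state whether they were divided by transcript or by coding length. Lengths were not used here, and their part in the ratio was not tested.

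Within the family the median ratio was higher for accessory than for core subunits. The 7 core subunits had a median ratio of -0.17 and 2 of them lay above 0. The 29 accessory subunits had a median of 0.26 and 24 lay above 0. Ndufab1 was highest at 1.43, percentile 99.3 of all genes, and its ratio was 1.57 in the inhibitor group, 1.29 in GFP control and 1.43 in mock. Ndufb2 followed at 1.02, with 1.0, 0.93 and 1.13 in the same 3 groups. The lowest was Ndufa13 at -0.51, with -0.51, -0.52 and -0.50 in the same 3 groups.

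**Figure D3:**
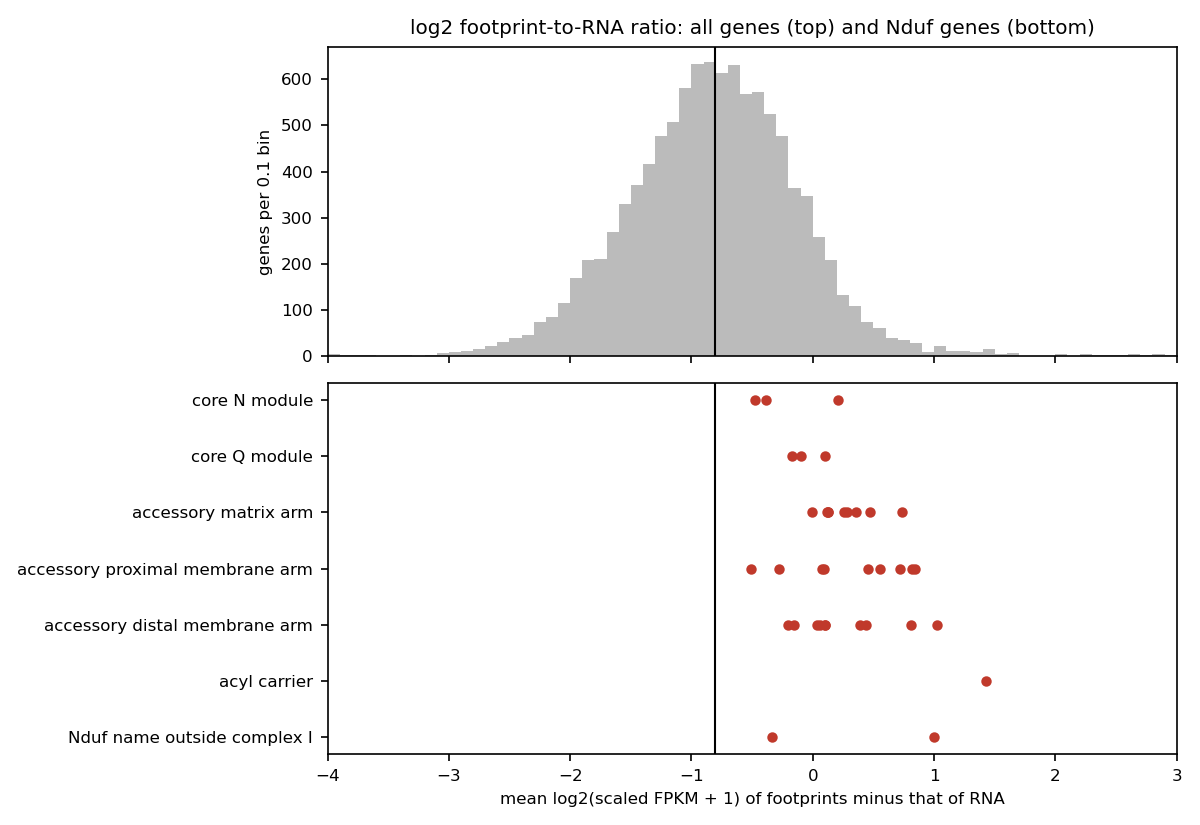
Mean log2(scaled FPKM + 1) of footprints minus that of RNA, as a histogram of the genes measured in both tables (top, genes per 0.1 bin) and as 1 point for each of 37 members by role (bottom). The line marks the median of all genes, -0.81, and all 37 points lie to its right, up to Ndufab1 at 1.43.

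Translational efficiency, the difference in footprints beyond that in RNA, was tested as an interaction in a limma fit over both tables. In inhibitor against GFP control, 0 of 38 members passed an adjusted p of 0.05 (background 0.0% of 10497 genes) and 0 had an unadjusted p under 0.05 (background 0.714%). In inhibitor against mock, 0 of 38 passed (background 0.0%) and 0 had an unadjusted p under 0.05 (background 0.915%). In GFP control against mock, 0 of 38 passed (background 0.0%) and 0 had an unadjusted p under 0.05 (background 0.372%). The median difference of the members was 0.02, -0.04 and -0.02 in these 3 comparisons, and 18 of 38 members lay below 0 for inhibitor against GFP control, where 44.0% of all genes did. Without inhibitor library 1 the median was -0.10 against GFP control and -0.16 against mock, and without all libraries numbered 1 it was -0.12 and -0.17. The highest estimates for inhibitor against GFP control were Ndufb4 at 0.71 ± 0.45 (SE) and Ndufa11 at 0.40 ± 0.42. The lowest were Ndufs6 at -0.46 ± 0.25 and Ndufb9 at -0.43 ± 0.23. The error of this difference was wide, since it adds the spread of both tables: the 95% interval stayed within 2-fold for 27 of 38 members against GFP control and for 28 against mock.

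The number that the labels give a library went with more of the spread of a member than the transfection did. The sum of squares of each member over the 12 libraries of a table was divided into a part between the 3 groups, a part between the 4 library numbers and the rest, as a description. In RNA the median member had 8.08% between groups and 50.8% between numbers, close to the medians of all genes, 8.15% and 49.7%. In footprints it had 8.36% and 57.7%, with 8.04% and 49.6% over all genes. Degrees of freedom alone would give 18.2% to groups and 27.3% to numbers. The part between numbers was larger than that between groups for 37 of 38 members in RNA, all but Ndufs6, and for 35 of 38 in footprints, all but Ndufb8, Ndufb9 and Ndufb11. These are 97.4% and 92.1% of the members, and over all genes the shares were 87.4% and 85.7%. Ndufb9 had the largest part between groups of any member in footprints, 75.3%, with 1.22% between numbers. Ndufa13, by contrast, had 3.5% between groups and 84.4% between numbers. What the numbers stand for is not given in the labels. In RNA the library numbered 1 held the largest share of Rn45s in each group, and the part of this in the spread was not tested.

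**Figure D4:**
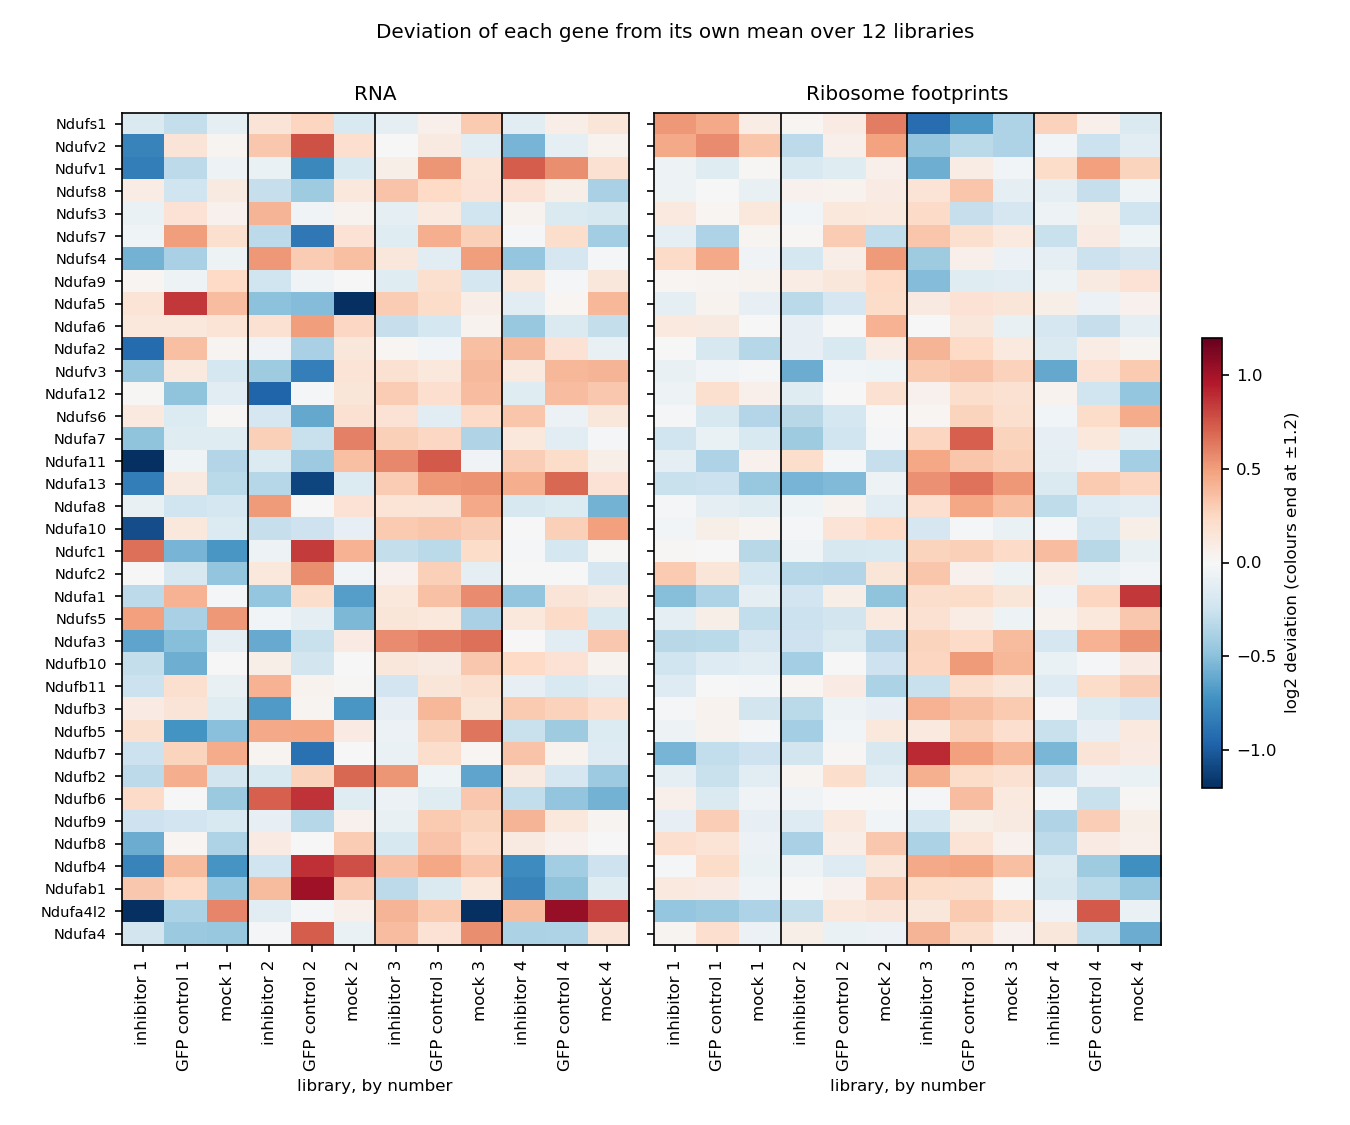
Deviation of 37 of the 38 members from their own means over the 12 libraries of a table (log2, colour), with libraries ordered by number and, within a number, inhibitor, GFP control and mock. Colours run in vertical blocks of 3 libraries for many genes, such as Ndufa13, high in all 3 footprint libraries numbered 3, and Ndufs1, low in the same 3.

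With the library number as a block in the limma fit, 0 of 38 members passed an adjusted p of 0.05 in any of the 9 comparisons. The block raised the calls over all genes from 2 to 32 in RNA and from 1 to 8 in footprints for inhibitor against GFP control (0.255% and 0.075% of genes tested), and from 3 to 34 in RNA and from 0 to 2 in footprints for inhibitor against mock (0.271% and 0.0187%). Members with an unadjusted p under 0.05 for inhibitor against GFP control were then 4 in RNA, Ndufa1, Ndufb4, Ndufs6 and Ndufv2, with a background of 6.86% of all genes. In footprints they were 4 as well, Ndufa7, Ndufb8, Ndufb9 and Ndufv3, with a background of 7.74%. Against mock they were 1 in RNA, Ndufa3 (background 8.42%), and 4 in footprints, Ndufa4, Ndufb5, Ndufb8 and Ndufv3 (background 7.93%). Between the controls they were 4 in RNA, Ndufa3, Ndufb3, Ndufc2 and Ndufs6 (background 1.59%), and 0 in footprints (background 1.15%). For translational efficiency they were 4 for inhibitor against GFP control, Ndufb4, Ndufb9, Ndufb10 and Ndufs6 (background 1.98%), 0 for inhibitor against mock (background 2.87%) and 0 between the controls (background 1.12%). The smallest adjusted p with the block against GFP control were 0.392 for Ndufa1 in RNA and 0.267 for Ndufb9 in footprints. Against mock they were 0.386 for Ndufa3 in RNA and 0.495 for Ndufa4 in footprints.

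The genes around the family were read from the same fits by list. Of the assembly factors, 16 of 17 listed genes were in the tables and 0 of 16 passed in any comparison by limma, with 1 at an unadjusted p under 0.05 in RNA and 0 in footprints for inhibitor against GFP control. For inhibitor against GFP control their smallest unadjusted p in RNA was that of Ndufaf2, a factor for late assembly, at -0.73 ± 0.31 (SE; limma, unadjusted p = 0.0335, adjusted p = 1.0). Ndufaf3, which acts on the Q module, followed at -0.76 ± 0.43. In footprints Tmem70, an assembly factor of ATP synthase also linked to complex I, stood at 0.31 ± 0.18 and Ndufaf6 at 0.34 ± 0.25. The medians of this list were -0.05 in RNA and -0.00 in footprints.

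Of the 38 genes of the other respiratory complexes, 0 passed in any comparison by limma, and 0 had an unadjusted p under 0.05 for inhibitor against GFP control in either table. Their medians for inhibitor against GFP control were -0.06 in RNA and -0.07 in footprints, with 22 and 29 of 38 below 0, against the 24 and 29 of the complex I members. For inhibitor against mock their medians were -0.02 in both tables, with 22 below 0 in RNA and 21 in footprints, where the complex I members had -0.06 and -0.12, with 25 and 26 below 0. Sdha, the flavin subunit of complex II, stood at -0.28 ± 0.19 in RNA and -0.32 ± 0.19 in footprints. Cox5a of complex IV stood at -0.24 ± 0.20 in RNA, and Atp5h of ATP synthase at -0.27 ± 0.15 in footprints. Of the 10 regulators, 9 were tested in RNA and 8 in footprints, and 0 passed by limma, with 0 at an unadjusted p under 0.05 for inhibitor against GFP control. Esrrb, an oestrogen-related receptor and pluripotency factor, stood at -0.19 ± 0.23 in RNA and -0.26 ± 0.17 in footprints. Esrra stood at 0.21 ± 0.30 in RNA, and Tfam, the factor that packs and transcribes mitochondrial DNA, at 0.22 ± 0.15 in footprints. All adjusted p-values of these named genes were 1.0 by limma.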

How the data were processed

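The authors deposited FPKM per gene with 2 decimals, 1 table for 12 RNA libraries and 1 for 12 footprint libraries. They are RSEM estimates, per the file headers. CASAVA 1.8.2, TopHat, Bowtie2, RSEM and the mm10 genome are named, per the submitters' processing notes, without further versions. RSEM divides reads that match several transcripts, which can move reads between near-identical copies. FPKM are relative to each library's total, so that much ribosomal RNA lowers every other gene. Scaling used median ratios of the genes that reached 5 FPKM throughout a table. Genes averaging 0.5 FPKM or more were tested on log2(scaled FPKM + 1) with limma 3.58.1 in R 4.3.3 (trended, robust, two-sided), all groups of a table sharing the spread, with Benjamini-Hochberg adjustment over every gene in the fit and calls at 0.05. Translational efficiency was the interaction of assay and group.

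Depth was estimated from the steps between low values. The fitted depths differed by under 0.1 (log2) from the direct estimate in 51 of 62 pairs of RNA libraries and 54 of 60 pairs of footprint libraries. No 2 libraries held identical values (0 pairs). Library numbers come from the labels. Deviations of same-numbered RNA libraries from their group means correlated at 0.231 to 0.674 in every pair. Those of inhibitor and GFP control footprints correlated at 0.354 to 0.671, and with footprint mock libraries they ranged from -0.129 to 0.723. Libraries with different numbers were not compared in this way. The number was left out of the main fits and used as a block in an alternative.

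The fit was tested on simulated data. Named genes were the 7 core subunits, Ndufab1, Ndufa4 and Ndufa4l2, the 2 highest and 2 lowest members by level, by footprint-to-RNA ratio and by each inhibitor against GFP control estimate, and any member past the threshold. Members, lists and tests were chosen with earlier results of these data known. The values of 1 member are not reported here, although it is kept in counts and medians. All 38 symbols matched RefSeq of GRCm38.p6, from which promoters and coordinates come. Alternatives were other filters, pseudocounts and scalings, the library number as a block, only the groups compared, and libraries left out. Python 3.11.15 was used for tables and plots.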

Additional observations from a re-analysis of the deposited data

Results flagged for a closer look

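A single library stood apart from the other 3 of its group in 2 of the 132 groups of 4 libraries examined, where chance alone flags about 1 in 20. Ndufc1 RNA was 85.5 scaled FPKM in GFP control library 2, and 31.9 to 40.9 in the other 3. Ndufs8 RNA was 23.4 scaled FPKM in mock library 4, and 33.6 to 35.2 in the other 3.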

How the results depend on the processing

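With 17 alternatives for each of the 9 comparisons, the number of members past the threshold was 0 in every one. The lowest adjusted p of a member (limma) was 0.148, for Ndufb9 in footprints against GFP control, with the replicate block and only the groups compared. It was 0.838 as reported, and over all alternatives it ran from 0.148 to 1.0. Each group holds 1 library of each number, so the replicate block can change the error of a difference but not the difference. The median differences, -0.09 in RNA and -0.07 in footprints for inhibitor against GFP control, were therefore the same with it by construction. The block changed no call of a member. Without scaling, on FPKM as deposited, the median of the members for inhibitor against GFP control was -0.61 in RNA (all genes -0.39) and 0.42 in translational efficiency (all genes 0.39). For inhibitor against mock it was -0.33 (-0.19) and 0.20 (0.20), and for GFP control against mock 0.25 (0.21) and -0.22 (-0.20). On that scale 4 estimates changed sign among the 2 largest rises and 2 largest falls of each measure against GFP control. These were Ndufs5 RNA -0.32, Ndufs6 RNA -0.19, and in translational efficiency Ndufs6 0.0006 and Ndufb9 0.035 (log2). Other members, named genes among them, changed sign too. Of all 38 members, 14 lay above 0 in RNA as reported and 0 without scaling, 9 and 4 in footprints, and 20 and 38 in translational efficiency. The setting changed here was the scaling, and the cause of these shifts was not tested. The median footprint-to-RNA ratio of the members above that of all genes was 1.12 with a pseudocount of 0.1 and 0.93 as reported. The footprint spread on FPKM as deposited, chosen after seeing the data, was 4.54% between groups and 21.2% between numbers (all genes 3.88% and 38.3%), and the cause was not tested. With 1 library left out, the median for inhibitor against GFP control ran from -0.11 to 0.01 in RNA and from -0.12 to -0.03 in footprints, and for inhibitor against mock from -0.12 to 0.00 and from -0.15 to -0.05. In translational efficiency it ran from -0.10 to 0.05 and from -0.16 to 0.02. Unknown absolute depth limits what can be said of Ndufa4l2.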
